A study of Rattus norvegicus with 8 samples.

Results

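The genes described are the rat microRNA genes with any signal in RNA of plasma exosomes, the small vesicles that cells release into blood. They were taken from the table of gene levels by name, as rows that begin with rno-mir, rno-let or Mir and a digit and that were above 0 in at least 1 library. Of the 29541 rows of the table, 418 fitted that name, and 43 of these were above 0. The 43 comprised 41 genes of single hairpins and 2 long transcripts that host hairpins, Mir9-2hg and Mir100hgl. The other 375 hairpin rows were listed at 0 in all 8 libraries.

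The groups were 4 exercised libraries and 4 sedentary libraries, labelled a to d in each group. All came from plasma of male Sprague Dawley rats, 9 to 10 weeks old when obtained, of a cohort that received no alpha-synuclein fibrils. Exercised rats were run on a treadmill for 1 month, 5 days a week, for 30 min a day at 20 m/min. Each run followed a 5 min warm-up at a speed of 10 m/min. Blood was taken by puncture of the left ventricle of the heart, no later than 30 min after the final run. Sedentary rats stayed in the same room and did not run. The labels do not state how many rats stand behind a library, so the p-values given here measure the spread between libraries. Vesicles came from cell-cleared plasma by a precipitation kit, and 1 ng of their RNA, not fragmented, went into each stranded total RNA library.

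A microRNA gene is transcribed as a long precursor that folds into a hairpin, and the hairpin is cut to a mature strand that guides Argonaute proteins to mRNAs. Pairing rests mainly on the seed, bases 2 to 8 of the mature strand, so microRNAs with the same seed are grouped as a family. Mature microRNAs are stable in plasma, where red cells, platelets, leukocytes, liver, muscle and endothelium are known sources. The libraries were made from total RNA, which includes hairpins and longer precursors, and not by a method for small RNA. How well they captured mature strands was not tested. A hairpin gene without reads therefore does not show that its mature strand was absent from plasma. A value per hairpin gene does not separate the mature strand from its precursor or from a host transcript read through the hairpin.

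RefSeq sequences (assembly GRCr8) were matched by symbol for 33 of the 41 hairpin genes. Their mature strands are shown where the values described next turn on them, with the seed in capitals. The first 3 strands share the seed AUUGCAC and come from 4 of the genes above 0, Mir92a1 and Mir92a2 (both of which give miR-92a-3p), Mir25 and Mir92b.
rno-miR-92a-3p: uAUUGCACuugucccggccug
rno-miR-25-3p: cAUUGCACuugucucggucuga
rno-miR-92b-3p: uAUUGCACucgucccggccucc
The next 4 strands are shown because Mir3555 and Mir3545, both among the highest genes, lie on the opposite strand of the hairpins of Mir191 and Mir203, so that each pair of genes reads the same stretch of the genome in opposite directions. Mir3555 gives miR-191b and Mir3545 gives miR-203b.
rno-miR-191b: gAACGAAAuccaagugcagcu
rno-miR-191a-5p: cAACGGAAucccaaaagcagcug
rno-miR-203b-3p: uUGAACUGuuaagaaccacugg
rno-miR-203a-3p: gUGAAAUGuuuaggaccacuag
The last 3 belong to microRNAs of red cells, liver and lymphoid or myeloid cells that were measured with few reads.
rno-miR-451-5p: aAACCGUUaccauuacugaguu
rno-miR-148a-3p: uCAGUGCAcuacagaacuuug
rno-miR-146a-5p: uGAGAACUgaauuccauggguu

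Levels are in TPM (transcripts per 1000000), the authors' values, which divide reads by gene length and bring each library to the same total. Of 77 hairpin values above 0 with a RefSeq length, 76 were a whole multiple of what 1 read is worth in the library, so whole reads could be recovered. For other genes the smallest length that gave whole reads was taken, so their reads are fitted. Among these were rno-mir-486, Mir1903, Mir5126 and Mir150. The libraries held 10020805 to 31357152 reads, of which 64777 to 139875 lay outside the 10 most abundant genes. These 10 genes took 98.1 to 99.2% of TPM. Exercised a had the fewest reads. On a hairpin of 80 bases, 1 read was worth 0.57 to 1.89 TPM.

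The 41 hairpin genes together held 253 reads, 162 in exercised libraries and 91 in sedentary libraries. By library, exercised a to d held 19, 27, 66 and 50 hairpin reads, and sedentary a to d held 18, 19, 25 and 29. Exercised c and d were the highest of all, while exercised a and b lay within the sedentary range. The number of microRNA genes above 0 was 8, 14, 19 and 21 in exercised a to d and 13, 12, 16 and 15 in sedentary a to d, so the groups overlapped.

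Most hairpin genes rested on very few reads. Of the 41, 11 had 1 read in all and another 11 had 2 reads, and 29 had 5 or fewer. Only 7 had 10 or more. Only rno-mir-486 and Mir92a1 were above 0 in all 8 libraries, while 16 genes (39.0%) were above 0 in 1 library, a pattern found in 19.8% of the 17901 genes of any kind above 0. More than 50% of the summed TPM came from a single library in 31 of the 41. Signal at these depths does not separate a gene with no RNA from one that was missed.

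**Figure D1:**
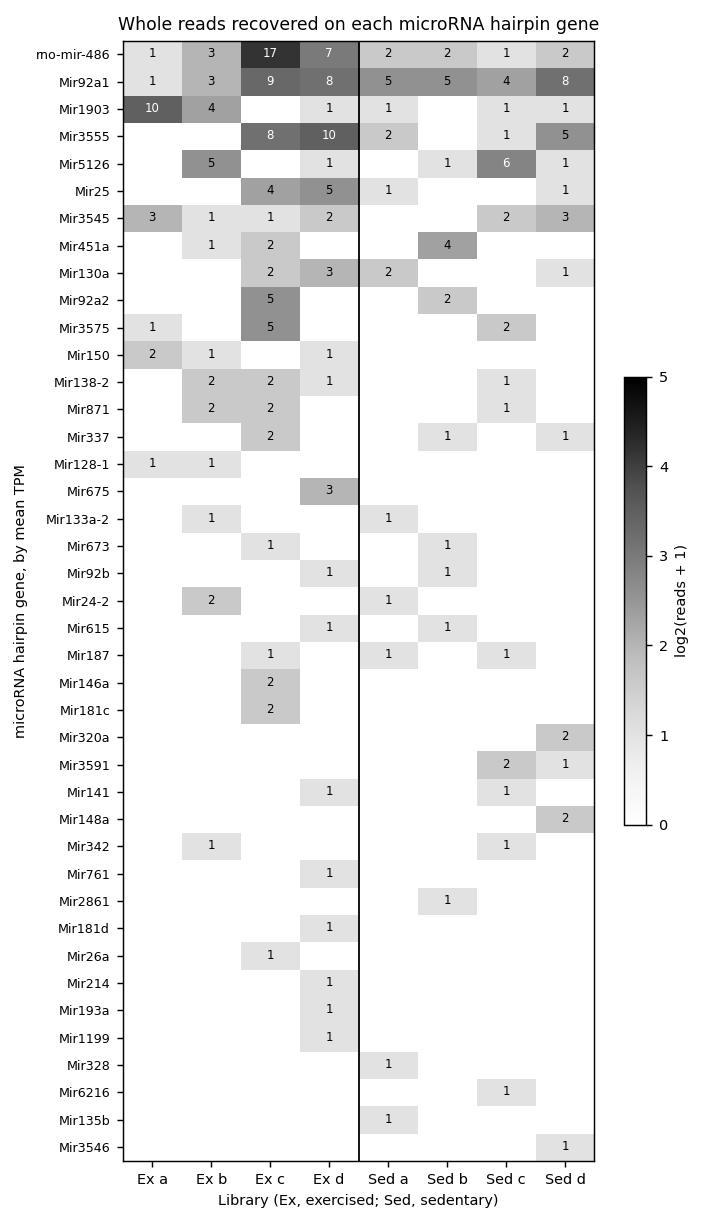
Whole reads recovered on each of the 41 microRNA hairpin genes (rows, ordered by mean TPM) in each library (columns, exercised to the left of the line and sedentary to the right). Shading is log2(reads + 1) and blank cells are 0. The upper 7 genes hold 62.8% of the 253 reads, and most rows below them hold 1 or 2 reads.

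Counted by direction, 28 of the 41 hairpin genes (68.3%) had a higher mean TPM in exercised libraries and 13 a lower one. Over all 17901 genes above 0 the share higher in exercised libraries was 57.0%. Reads came from exercised libraries alone for 11 hairpin genes (26.8%, against 12.5% of all genes above 0) and from sedentary libraries alone for 8 (19.5%, against 16.5%). For none of the 41 did the groups separate without overlap, as 1.06% of all genes above 0 did with exercised libraries higher and 0.715% with exercised libraries lower. With exercised c and d both left out, 12 hairpin genes were higher in exercised libraries and 20 were lower, a share of 37.5%. The share over all genes fell as well, from 57.0% to 40.2%. The fall for the hairpin genes, from 68.3% to 37.5%, was larger and ended below the share over all genes.

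Summed over the 43 microRNA genes, exercised a to d held 34.9, 24.2, 57.5 and 41.9 TPM, and sedentary a to d held 10.9, 18.7, 13.3 and 18.4 TPM. Every exercised library lay above every sedentary one. The means were 39.6 ± 13.97 TPM in exercised libraries and 15.3 ± 3.88 TPM in sedentary libraries (SD, n = 4 each), a ratio of 2.59. No test was made of this sum, as the genes were taken with earlier results of these data known. In RNA of whole plasma vesicles, more vesicles of a given source and more RNA per vesicle cannot be told apart. As reads for every 1000000 reads outside the 10 most abundant genes, the hairpin genes gave 293.3, 194.4, 639.6 and 580.0 in exercised a to d and 173.7, 248.8, 256.1 and 207.3 in sedentary a to d. For the hairpin genes on that scale the groups overlapped, since exercised b fell within the sedentary range, and the ratio of means was 1.93. The hairpin genes alone in TPM did not overlap (23.4 to 57.4 in exercised and 10.8 to 18.6 in sedentary libraries, ratio 2.58). With the host transcripts included, all 43 genes on the read scale spanned 661.2 to 1158 in exercised and 260.5 to 655.5 in sedentary libraries, without overlap, at a ratio of 1.84. That scale does not divide by length. The long host transcript Mir9-2hg gave 56 of the 75 reads in exercised a and 90 of the 117 in exercised b.

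The largest parts of the excess in summed TPM came from rno-mir-486 and Mir1903, which were highest in different libraries. Every other gene gave a much smaller part. Of the difference between the group means, 25.9% came from rno-mir-486 and 21.99% from Mir1903. Mir3555 gave 7.67%, Mir25 6.79%, Mir150 5.38% and Mir92a1 4.46%. Without rno-mir-486 the sums were 32.7, 21.2, 39.1 and 34.4 TPM in exercised a to d and 9.39, 16.4, 12.6 and 16.8 TPM in sedentary a to d, still without overlap, and the ratio was 2.31. With Mir1903 also left out, exercised a fell to 13.7 TPM, within the sedentary range of 8.77 to 16.4 TPM, and the ratio was 1.95. The 36 members with a mean under 1 TPM summed to 13.2 ± 6.03 TPM in exercised libraries and 6.17 ± 2.91 TPM in sedentary libraries, a ratio of 2.13, with overlapping groups.

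**Figure D2:**
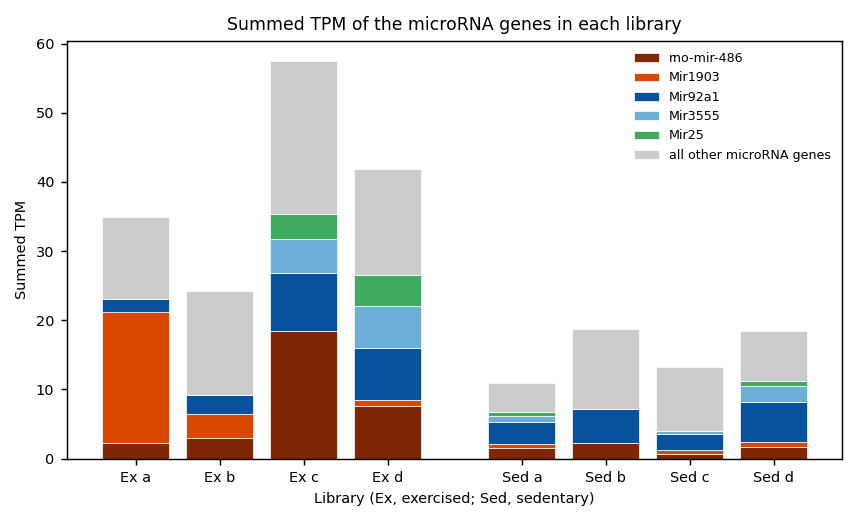
Summed TPM of the 43 microRNA genes in each library (bars from 0), split by gene in colour, with exercised libraries to the left. The exercised bars reach 24.2 to 57.5 TPM and the sedentary bars 10.9 to 18.7 TPM; exercised a consists mainly of Mir1903, while rno-mir-486 is the largest single part of exercised c.

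The 7 hairpin genes whose mean over the 8 libraries reached 1 TPM, the level set for testing, made up 65.7% of the hairpin TPM. They were compared within a limma fit of log2(TPM + 1) over all 508 genes at that level, with p-values adjusted over the 508. None of the 7 passed an adjusted p of 0.05, and of all 508 genes none did either (0.0%), although 54 had an unadjusted p under 0.05. At an unadjusted p under 0.05, 1 of the 7 was higher in exercised libraries, where 8.46% of the 508 were higher and 2.17% lower. The median log2 fold change of the 7 was 0.68 beside 0.40 over the 508, and 6 of the 7 were above 0 beside 69.1% of the 508. The groups overlapped for all 7, whereas 5.31% of the 508 were higher and 0.591% lower without overlap.

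rno-mir-486 is the gene of miR-486, known in mouse and human from red cell precursors and from heart and skeletal muscle, where it lies within Ank1. It had 2.23, 3.04, 18.4 and 7.55 TPM in exercised a to d and 1.48, 2.27, 0.67 and 1.65 TPM in sedentary a to d. These values stand for 1, 3, 17 and 7 reads in exercised libraries and for 2, 2, 1 and 2 reads in sedentary libraries. Exercised c alone held 49.3% of the TPM, exercised b and d lay above all sedentary libraries, and exercised a was just below sedentary b. Its means of 7.80 ± 7.44 TPM in exercised and 1.52 ± 0.66 TPM in sedentary libraries (SD, n = 4 each) had a ratio of 5.14. The log2 fold change was 1.48 ± 0.58 (SE), with an unadjusted limma p of 0.030 and an adjusted p of 0.39. The exact two-sided permutation test of the difference in mean TPM gave p = 0.057, adjusted to 0.56 over 508 genes, where 0.029 is the smallest value the 70 assignments allow. Without exercised c the ratio was 2.82, the log2 fold change 0.98 and the unadjusted limma p 0.069.

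Ank1, the ankyrin that ties the red cell membrane to its skeleton, was sparser than the hairpin within it. It had 1, 4, 2 and 3 reads in exercised a to d and 2, 2, 0 and 1 in sedentary a to d, or 0.025 ± 0.0078 TPM in exercised and 0.0099 ± 0.0083 TPM in sedentary libraries, with overlap. The reads of the host did not follow those of the hairpin in exercised c, where the hairpin had 17 reads and Ank1 had 2.

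Mir92a1 is the hairpin of the miR-17-92 cluster that gives miR-92a, a microRNA abundant in red cells. It had 1.94, 2.65, 8.49 and 7.53 TPM in exercised a to d and 3.22, 4.94, 2.34 and 5.77 TPM in sedentary a to d. Exercised c and d were the highest and exercised a the lowest of all 8 libraries, so the groups overlapped fully. With 21 reads in exercised and 22 in sedentary libraries, the ratio of means was 1.27, and the log2 fold change was 0.15 ± 0.49 (SE, limma adjusted p = 0.92). The sign was not stable: scaled without the 10 most abundant genes the log2 fold change was -0.47. The other hairpins of the cluster on the same strand, Mir17, Mir18a, Mir19a, Mir20a and Mir19b1, were all listed at 0.

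**Figure D3:**
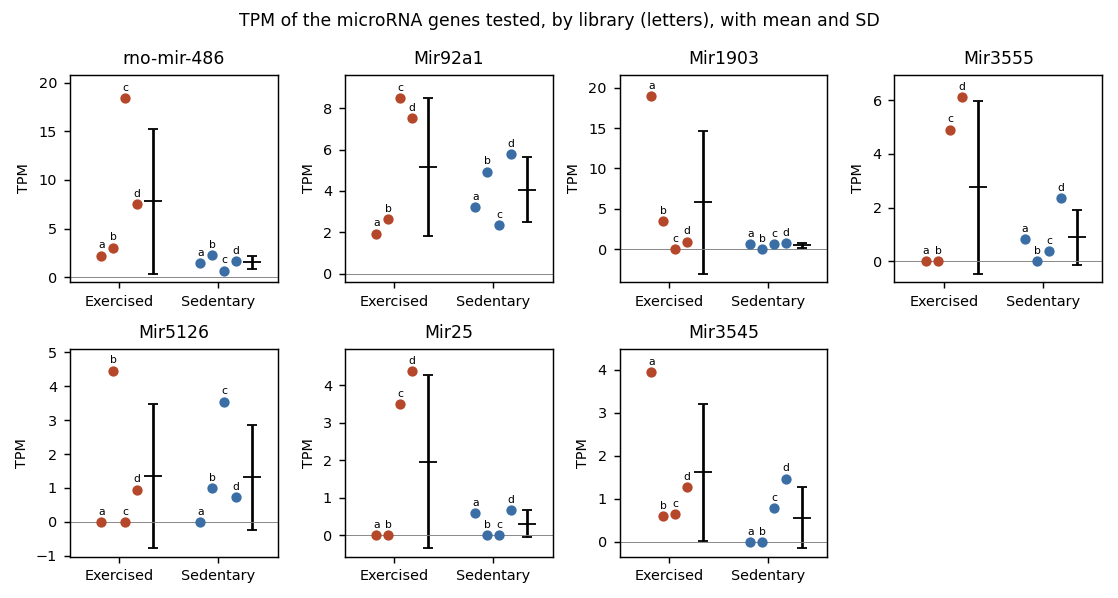
TPM of the 7 microRNA genes tested, with 1 point per library (letters a to d), exercised to the left of sedentary in each panel; the bar beside each group is the mean with its SD (n = 4). rno-mir-486 reaches 18.4 TPM in exercised c, Mir1903 18.9 TPM in exercised a, and in every panel the ranges of the groups overlap.

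Mir1903 stood in other libraries than rno-mir-486. It had 18.9, 3.44, 0 and 0.92 TPM in exercised a to d, from 10, 4, 0 and 1 reads, and 0.63, 0, 0.57 and 0.70 TPM in sedentary a to d, from 1, 0, 1 and 1 reads. Exercised a, the library with the fewest reads, held 75.2% of its TPM, and exercised c, the highest library for rno-mir-486, had none. The ratio of means was 12.3 and the log2 fold change 1.32 ± 0.82 (SE, limma adjusted p = 0.57). Without exercised a the ratio was 3.06.

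Mir25 lies within Mcm7, a subunit of the helicase that opens DNA for replication, in a cluster with Mir93, which was listed at 0. It had 0, 0, 3.504 and 4.37 TPM in exercised a to d and 0.60, 0, 0 and 0.67 TPM in sedentary a to d. All 9 exercised reads fell in c and d, and the groups overlapped because exercised a and b had none. The log2 fold change was 0.80 ± 0.65 (SE, limma adjusted p = 0.65). Mcm7 itself had 0, 2, 2 and 12 reads in exercised a to d and 1, 0, 2 and 4 in sedentary a to d.

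The 4 genes with the seed AUUGCAC, that of miR-25, miR-92a and miR-92b, held 1, 3, 18 and 14 reads in exercised a to d and 6, 8, 4 and 9 in sedentary a to d. Their summed levels were 1.94, 2.65, 15.996 and 12.8 TPM in exercised a to d and 3.82, 7.54, 2.34 and 6.44 TPM in sedentary a to d. The family was therefore low in exercised a and b and high in exercised c and d, the sedentary libraries spanned 2.34 to 7.54 TPM, and its ratio of means was 1.66. The mature strands of this family are near copies, since miR-92a-3p equals miR-25-3p at 18 and miR-92b-3p at 19 of 21 positions counted from the 5′ end. Mir92a1 and Mir92a2 give the same mature strand, so a read on it cannot be placed in one gene, and how the counting shared such reads is not stated. Mir92a2 had 5 reads in exercised c and 2 in sedentary b, and Mir92b had 1 read in exercised d and 1 in sedentary b. The remaining 2 rat hairpins with this seed, Mir32 and Mir363, were not among the genes above 0.

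**Figure D4:**
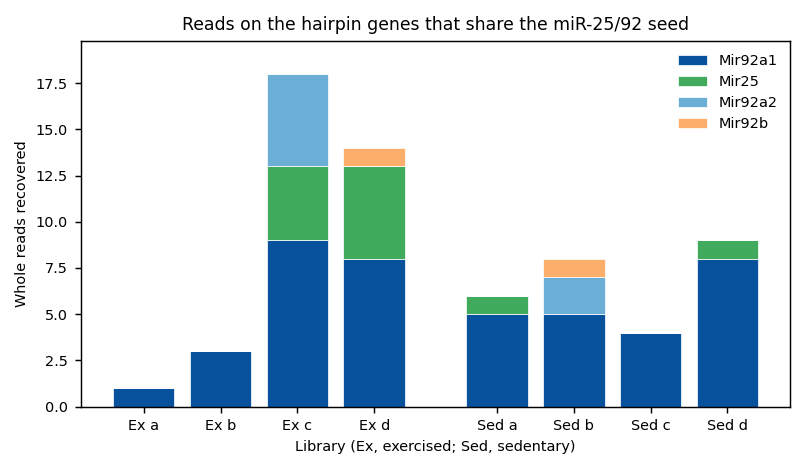
Whole reads on the 4 hairpin genes that share the seed of miR-25 and miR-92, stacked by gene (bars from 0), in each exercised library (left) and each sedentary library (right). Exercised c and d hold 18 and 14 reads and exercised a and b hold 1 and 3, while the sedentary libraries hold 4 to 9.

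Mir3555 overlaps Dalrd3 in position, with strand not compared. It covers, over 91 bases on the opposite strand, the hairpin of Mir191, a microRNA of blood cells. It had 0, 0, 4.91 and 6.12 TPM in exercised a to d and 0.84, 0, 0.38 and 2.34 TPM in sedentary a to d. As for Mir25, exercised c and d were the highest of all libraries and exercised a and b had no read. The ratio of means was 3.10 and the log2 fold change 0.58 ± 0.76 (SE, limma adjusted p = 0.77), which turned to -0.66 when TPM was scaled without the 10 most abundant genes. Without exercised d the ratio was 1.84, and without sedentary d it was 6.80. It is not stated whether the counting used strand, so RNA of Mir3555 and of Mir191 cannot be told apart, and Mir191 itself was not analysed here.

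Mir3545 overlaps the hairpin of Mir203, a microRNA of skin and other epithelia, over 97 bases on the opposite strand. It had 3.95, 0.60, 0.64 and 1.28 TPM in exercised a to d and 0, 0, 0.79 and 1.47 TPM in sedentary a to d. All exercised libraries were above 0, 3 of them within the sedentary range. Its log2 fold change was 0.68 ± 0.51 (SE, limma adjusted p = 0.62). Strand limits this gene in the same way, and 9 of the 33 genes with a RefSeq position had such a partner, among them Mir130a, Mir3575 and Mir337.

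Mir5126 was the only one of the 7 with a log2 fold change under 0. It had 0, 4.47, 0 and 0.95 TPM in exercised a to d and 0, 1.0007, 3.55 and 0.73 TPM in sedentary a to d, with 1 high library in each group. The means, 1.36 ± 2.13 TPM in exercised and 1.32 ± 1.55 TPM in sedentary libraries, had a ratio of 1.03, which was 0.24 without exercised b, 2.35 without sedentary c and 0.52 when TPM was scaled without the 10 most abundant genes. The log2 fold change was -0.14 ± 0.67 (SE, limma adjusted p = 0.94).

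Another 8 hairpin genes followed by mean level, all under 1 TPM and so outside the fit. Mir150, a microRNA of mature lymphocytes, had 3.56, 0.81, 0 and 0.86 TPM in exercised a to d and was listed at 0 in all sedentary libraries. That is 4 reads in 3 exercised libraries against none, and the exact 95% interval of the ratio of read rates, which covers counting error only, starts at 0.99. Mir138-2, of a microRNA found mainly in neurons, had 2, 2 and 1 reads in exercised b, c and d and 1 read in sedentary c. Mir871 had 2 reads in each of exercised b and c and 1 in sedentary c.

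The other 5 of these genes, with Mir92a2 given above, had reads in both groups. Mir451a, the red cell microRNA that Argonaute 2 cuts without Dicer, had 1 and 2 reads in exercised b and c and 4 reads in sedentary b, and its cluster partner Mir144 was listed at 0. Mir130a had 2 and 3 reads in exercised c and d and 2 and 1 reads in sedentary a and d. Mir3575 had 1 and 5 reads in exercised a and c and 2 in sedentary c. Mir337 had 2 reads in exercised c and 1 in each of sedentary b and d.

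The remaining 26 hairpin genes held 1 to 3 reads each, at mean levels of 0.34 TPM or less. Of these, 10 were seen in exercised libraries alone, 8 in sedentary libraries alone and 8 in both. Their 24 exercised and 21 sedentary reads summed to 1.85 to 8.87 TPM in exercised libraries and 2.80 to 3.63 TPM in sedentary libraries, with a ratio of means of 1.56 and overlapping groups. Mir181c, with 2 reads in exercised c, and Mir181d, with 1 read in exercised d, lie side by side and share the seed ACAUUCA. Of the 33 genes with a RefSeq position, 17 overlapped a gene that is not a microRNA gene, on either strand.

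Both host transcripts are far longer than a hairpin. Mir9-2hg, the transcript around a hairpin of the neural microRNA miR-9, had 56, 90, 9 and 5 reads in exercised a to d and 7, 9, 38 and 46 in sedentary a to d. Over its length of 7567 bases this is 1.12, 0.82, 0.088 and 0.048 TPM in exercised libraries and 0.046, 0.092, 0.23 and 0.34 TPM in sedentary libraries. Its ratio of means was 2.93, with overlapping groups. It was highest in exercised a and b, as was Mir1903, and lowest in exercised d and sedentary a, and the hairpin Mir9 was listed at 0. Mir100hgl had 0, 0, 1 and 2 reads in exercised a to d and 2, 1, 1 and 2 in sedentary a to d.

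Grouped by known source, the hairpins of red cells held the most reads. Of the 16 red cell hairpins that have a row, 5 were above 0, rno-mir-486, Mir92a1, Mir92a2, Mir25 and Mir451a, with 66 reads in exercised and 37 in sedentary libraries. The 11 at 0 included Mir144, Mir16 and Mir93. Without rno-mir-486 the list summed to 1.94, 3.602, 18.04 and 11.9 TPM in exercised a to d and 3.82, 10.9, 2.34 and 6.44 TPM in sedentary a to d, a ratio of 1.51 with overlap. Capture of mature strands was not tested. A row at 0, here and in the lists that follow, therefore does not show that plasma lacked the microRNA.

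Of 6 hairpins of striated muscle that have a row, 2 were above 0, rno-mir-486 and Mir133a-2. The names mir-1, mir-133c, mir-208a and mir-499, also on the list, were matched to no row, so nothing is known here of their levels. rno-mir-486 stands in the red cell list as well, and without it the muscle list held 1 read in exercised b and 1 in sedentary a, both on Mir133a-2. Mir1b, Mir133b, Mir206 and Mir208b, all known from skeletal or heart muscle, were listed at 0. Summed mRNA markers of skeletal muscle (4 of 7 in the table and all above 0) were 0.089 to 0.46 TPM in exercised and 0.078 to 0.26 TPM in sedentary libraries. Myh6, the myosin heavy chain of heart muscle and host of the miR-208a hairpin, had 5.66, 4.25, 0.29 and 2.27 TPM in exercised a to d and 0.53, 0.56, 0.29 and 2.13 TPM in sedentary a to d. It was highest in exercised a and b, where rno-mir-486 was lowest among exercised libraries, and the groups overlapped. Blood was drawn from the heart, and the source of the Myh6 RNA was not tested.

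Hairpins of other sources were rarer. Of 13 hairpins of platelets and leukocytes that have a row, 4 were above 0, Mir150, Mir146a, Mir24-2 and Mir26a. They held 9 reads in exercised and 1 in sedentary libraries, and Mir223, Mir142 and Mir21 were listed at 0. Mir146a, induced by inflammatory signalling, had 2 reads in exercised c, and Mir26a had 1 read in exercised c. Mir24-2 had 2 reads in exercised b and 1 in sedentary a. Of 13 hairpins of neurons and glia that have a row, only Mir138-2 and Mir128-1 were above 0, with 7 reads in exercised and 1 in sedentary libraries. Mir128-1 had 1 read in each of exercised a and b.

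The liver list ran the other way, on 2 reads. Of its 4 hairpins that have a row only Mir148a was above 0, with 2 reads in sedentary d. Mir122, also on the list, was not among the rows analysed. Mir3591, which lies opposite the liver microRNA gene Mir122 and was named after its values were seen, had 2 and 1 reads in sedentary c and d and none in exercised libraries. None of 5 hairpins of endothelium that have a row was above 0. The let-7 family, whose row names begin with Mirlet and so fall outside the 418, had 2 of 9 hairpins above 0, Mirlet7b and Mirlet7g, with 5 reads in exercised and 2 in sedentary libraries.

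mRNA markers of blood cells also differed between libraries, and their correlation with the microRNA values was not computed. Summed markers of neutrophils, all 7 of which were above 0, were 0, 0.16, 57.4 and 83.7 TPM in exercised a to d and 0.96, 0, 6.57 and 6.01 TPM in sedentary a to d. They were highest in exercised c and d, the libraries in which rno-mir-486, the miR-25/92 family and Mir3555 were highest. Summed markers of platelets (6 of 7 above 0, with Gp1bb at 0) were 6.22 to 12.9 TPM in exercised and 0.82 to 3.21 TPM in sedentary libraries, without overlap. Their part in the microRNA values was not tested.

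Markers of red cells and liver followed other orders. Those of red cells (8 of 12 in the table and all above 0) summed to 132.7, 30.1, 54.6 and 45.7 TPM in exercised a to d and 31.3, 70.4, 15.8 and 9.60 TPM in sedentary a to d. They were highest in exercised a, where the red cell hairpins held 2 reads, or 4.17 TPM. That hairpin sum was the lowest of the exercised libraries and lay within the sedentary range of 3.01 to 13.2 TPM. Markers of hepatocytes (6 of 6 above 0) summed to 17.3, 48.1, 1.44 and 0.39 TPM in exercised a to d and 27.6, 11.7, 47.6 and 69.4 TPM in sedentary a to d. They were lowest in exercised c and d. Their part in the microRNA values was not tested either.

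**Figure D5:**
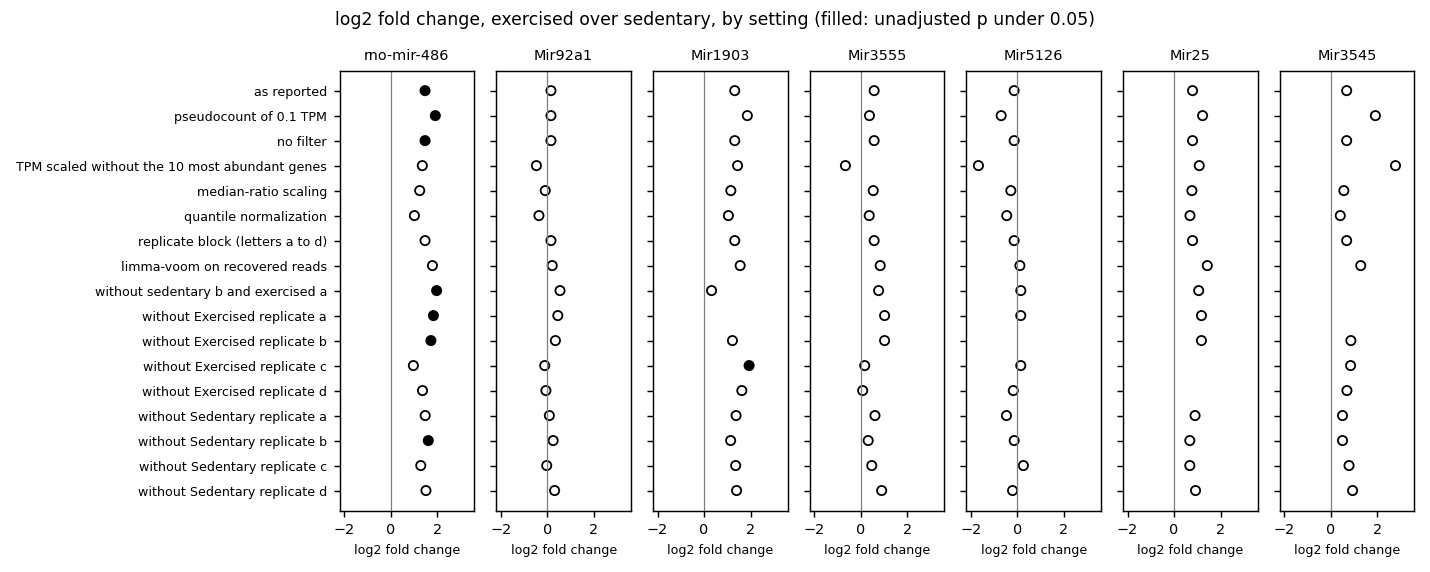
log2 fold change (horizontal axis, exercised over sedentary) of the 7 microRNA genes tested under each setting (rows); filled points have an unadjusted p under 0.05 and a missing point means that the gene fell below 1 TPM. rno-mir-486 stays between 0.98 and 1.98 and above 0 throughout, whereas Mir92a1, Mir3555 and Mir5126 fall on both sides of 0.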

How the data were processed

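Reads of 8 plasma exosome libraries were aligned and counted by the authors, who deposited 1 table of TPM. The submitters' processing notes name build mRatBN7.2; which aligner, counter and annotation were used is not stated in the sources at hand. The microRNA genes, gene lists and tests were chosen with earlier results of these data known.

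Reads were recovered as TPM times gene length over the value of 1 read per base, set for each library from RefSeq hairpin lengths (GRCr8). At a tolerance of 1e-06, 76 of 77 hairpin values came out whole, the exception being Mir214, whose length differs. For genes without such a length, the smallest length from 59 bases up that made all values whole was taken, so true reads could be a multiple. Whole reads were found for 17901 of 17901 genes. Intervals cover counting error only, and removal of PCR duplicates is not stated.

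Genes averaging 1 TPM or more were compared on log2(TPM + 1), which understates changes of low genes, with limma 3.58.1 in R 4.3.3 (trend, Benjamini-Hochberg). The fit was also run on simulated data with a fixed spread and changes larger than those of the microRNA genes tested. That run does not show its power for these genes. Permutation tests and sums used Python 3.11.15 with numpy and pandas. Named genes were those averaging 1 TPM or more, those filling 15 places by mean TPM, those above 0 in all libraries of a group, the members above 0 of source lists, and their fixed hosts. Alternatives were the pseudocount, the filter, 3 scalings, a replicate block, limma-voom on recovered reads, and libraries left out. Rows with no RefSeq hairpin are named without a sequence.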

Additional observations from a re-analysis of the deposited data

How the results depend on the processing

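No microRNA gene passed an adjusted p of 0.05 under any alternative run, and over all genes the count was 0 throughout except without sedentary a, where 1 gene, Snora81_1, passed (range 0 to 1 over the libraries left out in turn). At an unadjusted p under 0.05 the count among the 7 tested microRNA genes was 1, rno-mir-486, and 0 after scaling without the 10 most abundant genes, after median-ratio scaling, after quantile normalization, with limma-voom on recovered reads and with the replicate block, and 0 to 1 with each library left out, where the 1 without exercised c was Mir1903. rno-mir-486 had an unadjusted limma p of 0.099, 0.065, 0.096 and 0.052 under the first 4 of these, and its log2 fold change ran from 0.98 to 1.84 over single libraries left out and was 1.98 without sedentary b and exercised a. Same-letter libraries did not deviate together (correlations of -0.26 to -0.0049 over 508 genes), and pairs of different letters ran from -0.27 to 0.32. Whether a letter marks a shared pair or batch is not stated, and these correlations cannot decide it. Under the replicate block rno-mir-486 had an unadjusted limma p of 0.060. Median log2 fold changes over all genes moved from 0.40 to -0.059, 0.19 and 0.014 under the 3 scalings, with 15 higher and 21 lower, 25 and 14, and 19 and 27 genes at an unadjusted p under 0.05. Directions turned for Mir92a1 (-0.47, -0.091 and -0.36 under the 3 scalings, -0.11 to 0.45 over libraries left out), Mir3555 (-0.66 without the 10 most abundant genes) and Mir5126 (0.11 with limma-voom, 0.15 without sedentary b and exercised a, -0.47 to 0.26 over libraries left out); the cause was not tested. The ratio of summed TPM stayed at 1.72 to 2.92, and without rno-mir-486 at 1.53 to 2.56, the lowest when scaled without the 10 most abundant genes. Some alternatives were added after the data were seen. Scaled without the 10 most abundant genes, 24 hairpin genes (58.5%, against 42.3% of all genes) were higher in exercised libraries. Under median-ratio scaling 24 were higher (58.5%, against 50.7%). Without exercised a 32 were higher (78.0%, against 57.4%), and without exercised c and d 12 (37.5%, against 40.2%). Depth also limits these values, since 22 of the 41 hairpin genes held 1 or 2 reads.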

Other observations

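H19, the long RNA that contains Mir675, had 4, 4, 20 and 4 reads in exercised a to d and 5, 3, 5 and 2 reads in sedentary a to d, while Mir675 had 3 reads, all in exercised d. As levels H19 had 0.29, 0.13, 0.70 and 0.14 TPM in exercised libraries and 0.12, 0.11, 0.11 and 0.054 TPM in sedentary libraries, without overlap. Both were named after their values were seen. With no filter on level, Mir150 and Mir138-2 also fell under an unadjusted limma p of 0.05 (0.029 and 0.034), each with an adjusted p of 0.71.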
